A study of Mus musculus with 14 samples.

Results

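Simple keratins and a set of regulators of epithelial identity were followed across 14 mouse lung tumours. The set holds 10 genes, chosen by name, out of 46517 genes in the table. It comprises the keratins Krt8, Krt18, Krt7 and Krt19, the splicing factors Esrp1 and Esrp2, and the transcription factors Grhl2, Ovol1, Elf3 and Ehf. All 10 were found in the table, each in 1 row.

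Both mouse models used here, RPM and RPR2, were made to develop SCLC, the small cell form of lung cancer, which is a neuroendocrine carcinoma. All mice carry floxed Rb1 and floxed Trp53, and in both models the tumours were started with an adenovirus in which the Cgrp promoter, active in neuroendocrine cells, drives Cre recombinase. RPM mice (11 tumours) also carry a Myc T58A allele behind a lox-stop-lox (LSL) cassette, which Cre switches on. Of these tumours 9 were LSL/LSL and 2, replicates 2 and 4, were LSL/+. RPR2 mice (3 tumours) carry floxed p130 (Rbl2) in place of the Myc allele. All tumours were untreated and were dissected from the lung by eye, so lung tissue around a tumour can be in a sample, and the labels used here give no ages. The labels do not say that each tumour came from its own animal, and the 11 RPM tumours carry 9 title numbers, so p-values measure the spread between these samples. The identifiers of the libraries begin with 1 number for 10 RPM libraries, with another for RPM replicate 9 and with yet another for all 3 RPR2 libraries. Whatever that number stands for cannot be told apart from the model.

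Keratins are the intermediate filament proteins of epithelial cells. They work as pairs of a type II and a type I chain, and the simple keratins K8 and K18 (with K7 and K19) form the network of single-layered epithelia such as the lining of the lung. ESRP1 and ESRP2 are RNA-binding proteins that set epithelial splicing of many transcripts. Grainyhead-like, OVO-like and epithelial ETS factors maintain adhesion and barrier genes, and OVO-like proteins repress genes of the mesenchymal state. Normal alveolar and airway epithelium expresses these genes too.

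In brief, all 10 genes were lower in RPM than in RPR2 tumours, as were 22.8% of all tested genes. For each of the 10 every RPM tumour lay below every RPR2 tumour, as for 13.6% of all tested genes. Ovol1 entered the test through RPR2 alone and had to differ. RPR2 replicate 3 was low in neuroendocrine markers. Krt8 and Krt18 stood above 467 FPKM in every RPR2 tumour (FPKM, fragments per kilobase of transcript and per sequenced fragments, is a level per transcript length) and below 46 FPKM in every RPM tumour. Elf3 had the smallest difference of the set. Within RPM, 33 of the 45 pairs of genes were correlated over the pooled tumours, and none of the 9 pairs with Elf3 was.

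Coordinates are those of GENCODE on GRCm38, which is the mm10 assembly. Krt8, Krt18, Krt7 and Grhl2 lie on chromosome 15. Krt8 (ENSMUSG00000049382, 101996698 to 102004482, minus strand, 9 exons) and Krt18 (ENSMUSG00000023043, 102028180 to 102032027, plus strand, 7 exons) are neighbours that are transcribed away from each other, with 23.7 kb between them. Krt7 (ENSMUSG00000023039) lies at 101411043 to 101430313 on the plus strand and Grhl2 (ENSMUSG00000022286) at 37233036 to 37363569 on the plus strand. Krt19 (ENSMUSG00000020911) lies on chromosome 11, 100140810 to 100148665, minus strand. Esrp1 (ENSMUSG00000040728) lies on chromosome 4, 11331933 to 11386783, minus strand, and Esrp2 (ENSMUSG00000084128) on chromosome 8, 106130319 to 106136974, minus strand. Ovol1 (ENSMUSG00000024922) lies on chromosome 19, 5549136 to 5560646, minus strand. Elf3 (ENSMUSG00000003051) lies on chromosome 1, 135253575 to 135258568, and Ehf (ENSMUSG00000012350) on chromosome 2, 103263433 to 103303278, both on the minus strand. All are annotated as protein-coding.

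Promoter sequence is shown because these genes were lower together in one model, and the letters let a reader see the stretch upstream of their starts. RefSeq promoters (GRCm38.p6, 250 bases before to 50 bases after the start) matched 4 of the 10 genes, Krt8, Krt18, Krt7 and Elf3. Only the stretch free of annotated exons is printed, 5′ to 3′ on the gene's strand, and capitals mark a motif match. In Krt8 the capitals are the ETS core GGAAGT on the opposite strand, and in Krt18 and Elf3 they are the ZEB and SNAI E-box CACCTG.
Krt8, chr15:102004483-102004592, minus strand: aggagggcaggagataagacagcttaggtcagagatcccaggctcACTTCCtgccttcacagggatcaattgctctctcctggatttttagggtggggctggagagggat
Krt18, chr15:102027966-102028179, plus strand: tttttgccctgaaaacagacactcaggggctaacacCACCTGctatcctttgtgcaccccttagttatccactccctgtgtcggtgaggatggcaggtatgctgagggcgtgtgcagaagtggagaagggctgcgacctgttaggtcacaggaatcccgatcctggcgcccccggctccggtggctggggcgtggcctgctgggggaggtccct
Elf3, chr1:135258569-135258722, minus strand: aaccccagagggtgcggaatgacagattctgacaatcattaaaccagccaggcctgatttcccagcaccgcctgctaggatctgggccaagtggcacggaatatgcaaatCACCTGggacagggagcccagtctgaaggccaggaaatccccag

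The match began at position -205 from the start site in Krt8, -214 in Krt18 and -140 in Elf3. Both strands of each 300-base window were searched for 4 motifs. CACCTG was in all 4 windows, against 20.21% of 32851 promoters. GGAAGT was in the windows of Krt7 and Krt8, against 23.77% of promoters. The grainyhead-like motif AACCNGTT (2.09% of promoters) and the OVO-like motif CCGTTA (2.76%) were in none of these 4 windows. A match is a stretch of letters, and no binding was measured here.

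The depth was estimated from single-read steps in the values of short genes, at 17.32 to 19.68 M reads for the RPM tumours and 21.36 to 22.78 M for the RPR2 tumours. On a transcript of 2 kb, 3 reads then equal 0.0762 to 0.0866 FPKM in RPM and 0.0658 to 0.0702 FPKM in RPR2, counting error only. One library stood apart. RPR2 replicate 3 had a summed level of 19.2 FPKM over 12 neuroendocrine markers, with 9 of the 12 under 1 FPKM, against 3517 and 4863 FPKM in the other RPR2 tumours and 253 to 1446 FPKM in RPM. Its 8 alveolar type 2 markers summed to 51962 FPKM, against 1256 and 1984 FPKM in the other RPR2 tumours and 15.6 to 892 FPKM in RPM. The labelled tumour type was thus not borne out by neuroendocrine markers in that library, and results are given with and without it.

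Krt8, the type II chain, and Krt18, its type I partner, were compared first. Krt8 stood at 0.75 FPKM in the lowest RPM tumour, 7.58 in the median one and 45.57 in the highest, and at 676.42, 699.34 and 467.49 FPKM in RPR2 replicates 1, 2 and 3. Krt18 stood at 2.83, 10.39 and 36.88 FPKM (lowest, median, highest) in RPM and at 568.74, 604.03 and 573.33 FPKM in RPR2. The groups did not overlap for either gene, and the lowest RPR2 tumour was 10.3 times the highest RPM tumour for Krt8 and 15.4 times for Krt18. All tests except those of ratios used the log2(FPKM + 1) scale, which understates the change of low genes. On this scale Krt8 fell by 6.12 in RPM (SE 0.924, limma with Benjamini-Hochberg adjustment over 15719 genes, adjusted p = 0.000114), a 69.7-fold difference. Krt18 fell by 5.68 (SE 0.620, limma, Benjamini-Hochberg adjusted p = 6.43e-06), a 51.1-fold difference. Krt8 ranked 4 and Krt18 ranked 9 from the lowest of the 15719 log2 differences. In whole tumours, fewer cells of a type and less RNA per cell cannot be told apart. Of the 50-base words in the Krt8 transcripts, 26.93% also occur in the pseudogene Krt8-ps. The pseudogene has no row in the table, so how such reads were assigned is not known and can affect the Krt8 level.

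Krt7 and Krt19, the other chains of this keratin set, followed with smaller differences. Krt7, a type II keratin of glandular and airway epithelium, stood at 3.15, 11.91 and 37.78 FPKM (lowest, median, highest) in RPM and at 481.45, 509.87 and 111.90 FPKM in RPR2. RPR2 replicate 3 was the low one, and it still lay 2.96 times above the highest RPM tumour. Krt19, the smallest type I keratin, was listed at 0 in RPM replicate 4 and reached 8.09 FPKM in the median and 24.00 FPKM in the highest RPM tumour. In RPR2 it stood at 114.06, 103.85 and 188.43 FPKM, and here RPR2 replicate 3 was the highest. Krt7 fell by 4.63 on the log2 scale (SE 0.677) and Krt19 by 4.31 (SE 0.906), with Benjamini-Hochberg adjusted p = 8.84e-05 and 0.00159 by limma.

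**Figure D1:**
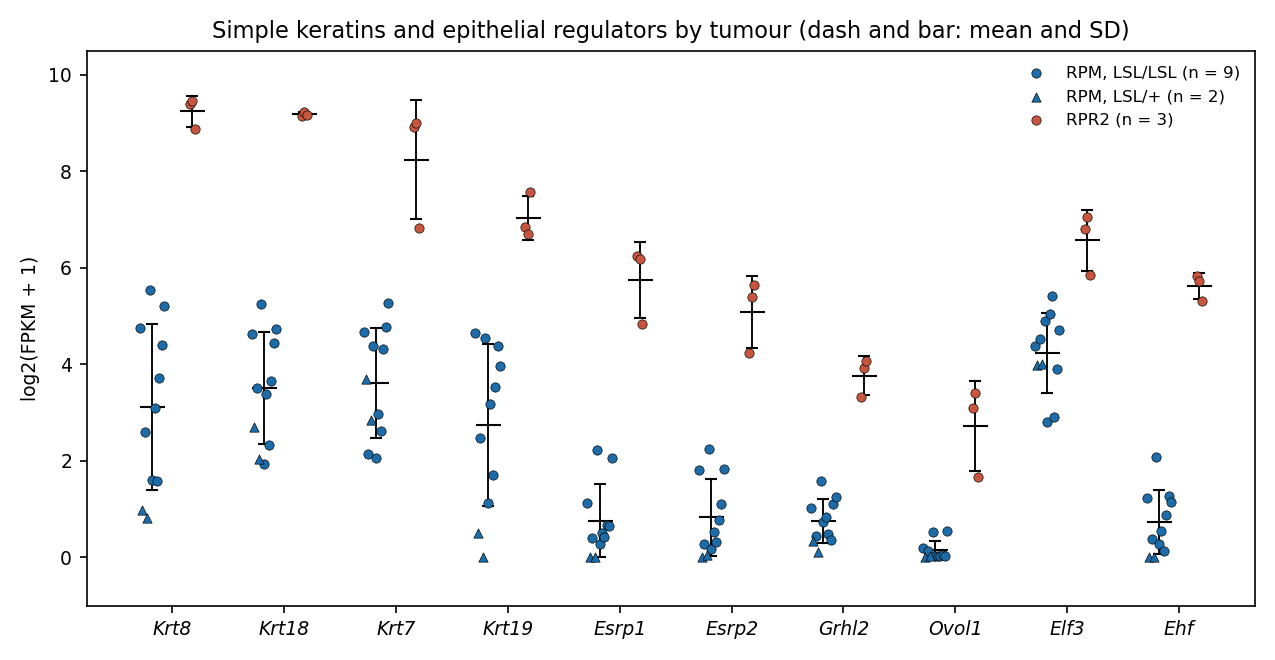
Level of each of the 10 genes in every tumour, as log2(FPKM + 1), with 11 RPM tumours (blue, triangles for the 2 LSL/+ tumours) and 3 RPR2 tumours (red) per gene and the mean and SD of each group as a dash and a bar. For each gene all RPR2 points lie above all RPM points, and the gap is smallest for Elf3, whose lowest RPR2 tumour is 1.34 times the highest RPM tumour.

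Esrp1 and Esrp2, the epithelial splicing regulators, were near the limit of detection in several RPM tumours. Esrp1 stood at 0, 0.42 and 3.69 FPKM (lowest, median, highest) in RPM, with 2 tumours under the level of 3 reads, and at 74.48, 71.67 and 27.74 FPKM in RPR2. Esrp2 stood at 0, 0.44 and 3.75 FPKM in RPM, also with 2 tumours under the level of 3 reads, and at 17.84, 40.88 and 48.99 FPKM in RPR2. The order of the RPR2 tumours was thus opposite for these paralogs, with replicate 3 lowest for Esrp1 and highest for Esrp2. Esrp1 fell by 4.99 on the log2 scale (SE 0.463, 31.8-fold, limma, Benjamini-Hochberg adjusted p = 1.58e-06). Esrp2 fell by 4.26 (SE 0.480, 19.2-fold, limma, Benjamini-Hochberg adjusted p = 8.41e-06).

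Grhl2, a grainyhead-like activator of cell adhesion genes, and Ovol1, a zinc finger repressor, had the lowest levels of the set in RPR2. Grhl2 stood at 0.08, 0.67 and 1.99 FPKM (lowest, median, highest) in RPM and at 8.96, 14.17 and 15.77 FPKM in RPR2. Ovol1 stood at 0, 0.02 and 0.47 FPKM in RPM and at 7.61, 9.62 and 2.17 FPKM in RPR2. No RPM tumour reached 1 FPKM of Ovol1 and 7 of the 11 lay under the level of 3 reads on its transcript (0.0513 to 0.0583 FPKM), so the gene entered the test through RPR2 alone and had to differ. Grhl2 fell by 3.02 on the log2 scale (SE 0.290, limma, Benjamini-Hochberg adjusted p = 2.11e-06), and Ovol1 fell by 2.58 (SE 0.276, limma, Benjamini-Hochberg adjusted p = 5.3e-06).

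Elf3 and Ehf, 2 ETS factors of epithelia, stood far apart in RPM. Elf3 remained well expressed in RPM at 6.01, 19.92 and 41.98 FPKM (lowest, median, highest), against 111.22, 131.51 and 56.44 FPKM in RPR2. Ehf stood at 0, 0.47 and 3.26 FPKM in RPM, with 2 tumours under the level of 3 reads, against 55.90, 51.90 and 38.74 FPKM in RPR2. Elf3 fell by 2.33 on the log2 scale (SE 0.475, 5.04-fold, limma, Benjamini-Hochberg adjusted p = 0.00124), and Ehf fell by 4.90 (SE 0.382, 29.8-fold, limma, Benjamini-Hochberg adjusted p = 3.45e-07).

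All 10 genes thus passed the test in the lower direction, where 22.8% of all 15719 tested genes did, and all 10 had groups that did not overlap, against 13.6% of genes lower without overlap. A further 18.4% of all genes were higher in RPM. The median log2 difference was -4.47 over the 10 genes and -0.06 over all tested genes. Leaving out Ovol1, the other 9 genes had at least 1 FPKM in 3 or more RPM tumours. Without RPR2 replicate 3, the 9 genes that could be tested were all lower in RPM, against 27.4% of 15406 genes. The log2 differences were then -6.31 for Krt8, -5.69 for Krt18, -5.34 for Krt7, -4.04 for Krt19, -5.45 for Esrp1, -3.98 for Esrp2, -2.87 for Grhl2, -2.69 for Elf3 and -5.05 for Ehf. A pseudocount of 0.01 in place of 1 moved Esrp1 to -7.21, Ehf to -7.21, Ovol1 to -6.49 and Esrp2 to -6.41, since their RPM levels are close to 0.

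**Figure D2:**
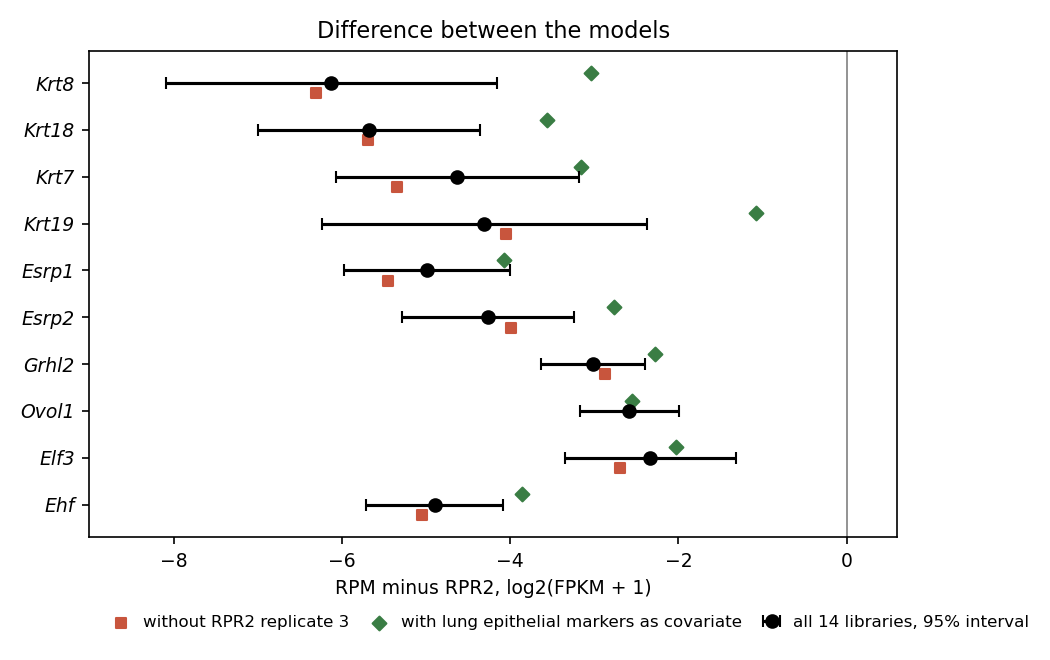
RPM minus RPR2 difference in log2(FPKM + 1) for each gene with its 95% confidence interval from limma, with the values that leave out RPR2 replicate 3 and that add lung epithelial markers as a covariate. All estimates lie below 0, from -6.12 for Krt8 to -2.33 for Elf3 with all libraries and no covariate.

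By level, the order of the genes differed between the models. In RPR2 the medians ran from Krt8 (676.42 FPKM), Krt18 (573.33) and Krt7 (481.45) through Krt19 (114.06), Elf3 (111.22), Esrp1 (71.67), Ehf (51.90) and Esrp2 (40.88) to Grhl2 (14.17) and Ovol1 (7.61). In RPM they ran from Elf3 (19.92 FPKM), Krt7 (11.91), Krt18 (10.39), Krt19 (8.09) and Krt8 (7.58) to Grhl2 (0.67), Ehf (0.47), Esrp2 (0.44), Esrp1 (0.42) and Ovol1 (0.02). Within RPM the ranges of Elf3 and the 4 keratins overlapped widely, as did those of Grhl2, Ehf, Esrp2 and Esrp1. Whether neighbours in that order differ within the same tumours was not tested.

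Ratios within a library compare related genes without a scaling between libraries. They were formed with 0.1 FPKM added to each gene and tested by a two-sided exact permutation test over every division of the tumours into 11 and 3, adjusted over 5 ratios. Elf3 to Ehf had a geometric mean of 32.4 in RPM (log2 2.83 to 7.79) and stood at 1.99, 2.53 and 1.46 in RPR2, without overlap. The log2 difference was 4.06 (exact permutation p = 0.00549, Benjamini-Hochberg adjusted p = 0.0275). That call was lost by the same exact permutation test without RPM replicate 2 or 4 (adjusted p = 0.0525), without RPR2 replicate 1 or 2 (0.0641, where fewer divisions exist) and with 0.01 FPKM added (0.055). With 2 RPR2 tumours left, 0.0641 is the smallest adjusted p that a ratio on its own can reach. Those losses were thus set by the number of tumours, and the groups still did not overlap.

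The keratin ratios did not pass. Krt8 to Krt18 averaged -0.56 ± 0.93 on the log2 scale in RPM (SD, n = 11; range -2.37 to 0.49) and was 0.25, 0.21 and -0.29 in RPR2 (exact permutation, Benjamini-Hochberg adjusted p = 0.364). RPM replicates 2 and 4 had the lowest values, with 0.99 and 0.75 FPKM of Krt8 against 5.55 and 3.13 FPKM of Krt18. Krt7 to Krt8 averaged 0.68 in RPM and was -0.49, -0.46 and -2.06 in RPR2 (exact permutation, Benjamini-Hochberg adjusted p = 0.158). Krt19 to Krt18 differed by 0.92 (exact permutation, Benjamini-Hochberg adjusted p = 0.379), and with 1 FPKM added by 1.37 (0.0343 by the same exact permutation test). Esrp1 to Esrp2 was 4.16, 1.75 and 0.567 in the RPR2 tumours and had a geometric mean of 0.946 in RPM (exact permutation, Benjamini-Hochberg adjusted p = 0.247). Without RPR2 replicate 3 the log2 difference of this ratio was -1.51 (exact permutation, Benjamini-Hochberg adjusted p = 0.0321). The RPR2 values of this ratio and of Elf3 to Ehf then both lay outside the RPM range. Each thus had the smallest p that the fewer divisions allow.

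**Figure D3:**
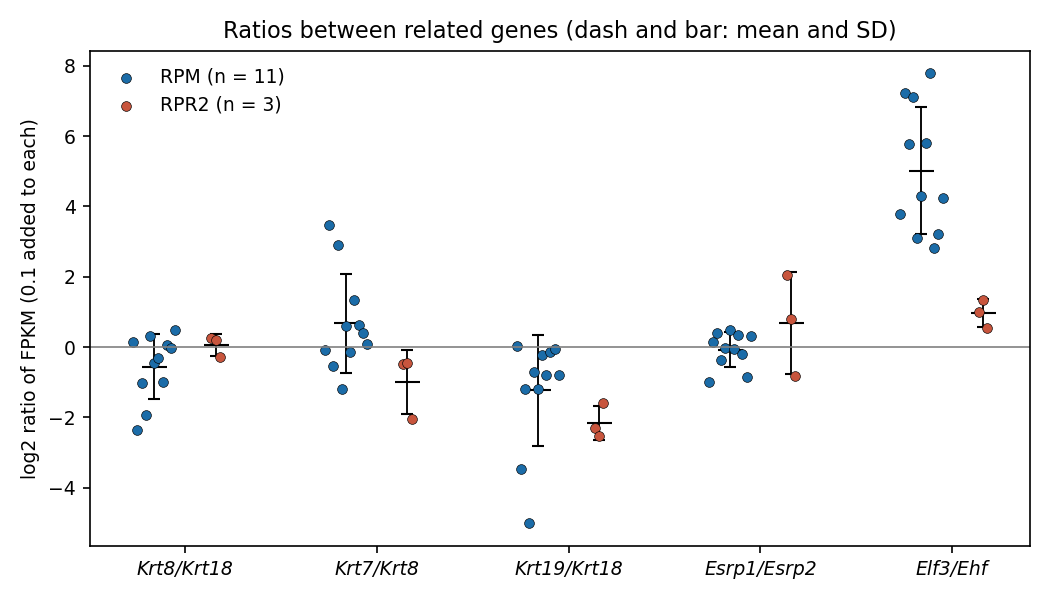
Log2 ratio between related genes in every tumour (0.1 FPKM added to each), with 11 RPM and 3 RPR2 tumours per ratio. Elf3 to Ehf is the ratio whose groups do not overlap, with RPM between 2.83 and 7.79 and RPR2 between 0.54 and 1.34.

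Markers of normal lung epithelium moved with the set. All 8 alveolar type 2 markers were lower in RPM (4 without RPR2 replicate 3), as were 5 of 8 alveolar type 1 markers (2 without it) and 4 of 6 club cell markers (4 without it). Summed club cell markers ran from 1.39 to 1772 FPKM in RPM (median 643.5) and were 3855, 27017 and 3253 FPKM in RPR2. Summed alveolar type 1 markers ran from 14.4 to 225 FPKM (median 44.8) and were 205, 280 and 847 FPKM. By limma with Benjamini-Hochberg adjustment, 0 of 7 ciliated cell markers passed (1 had an unadjusted p under 0.05), and 2 of them were lower without RPR2 replicate 3. Of 6 macrophage markers 0 passed with or without that library, and 0 had an unadjusted p under 0.05 with it. Of 4 mesothelial markers 1 was higher and 0 were lower, and without RPR2 replicate 3 the counts were 1 and 1. Of 6 fibroblast markers 3 were higher and 1 lower, and of 6 endothelial markers 1 was lower, the same counts as without that library. No marker of any of these lists was at 0 in a whole group. Of 12 neuroendocrine markers 1 rose (Uchl1) and 1 fell (Calca) with all libraries, and 0 rose and 6 fell without RPR2 replicate 3. Uchl1 ran from 124 to 876 FPKM in RPM and was 300, 239 and 2.45 FPKM in RPR2. Over all tested genes 18.4% rose and 22.8% fell, and 16.4% and 27.4% without RPR2 replicate 3.

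The mean log2 level of the alveolar type 2 and club markers did not overlap between the models (0.614 to 5.90 in RPM, 6.46 to 9.23 in RPR2), so its part in the difference cannot be told apart from the model. A fit with that mean as a covariate was added after the data were seen. In it 8 of the 10 genes were lower by limma with Benjamini-Hochberg adjustment. The share of all genes lower in that fit was not worked out, so the count has no baseline. Ovol1, among the 8, had entered the test through RPR2 alone. The log2 differences were -3.04 for Krt8, -3.56 for Krt18, -3.16 for Krt7, -4.07 for Esrp1, -3.86 for Ehf, -2.77 for Esrp2, -2.28 for Grhl2 and -2.55 for Ovol1. Krt19 (-1.08, adjusted p = 0.133) and Elf3 (-2.03, adjusted p = 0.0526) did not pass in that limma fit.

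Single tumours show the same values side by side. RPM replicate 11 and RPR2 replicate 1, chosen after their values were seen, had similar alveolar type 2 sums (891.53 and 1255.88 FPKM, a ratio of 1.41) and alveolar type 1 sums (a ratio of 1.14), with a club cell ratio of 2.47. Between them Krt8 differed 18.8-fold, Krt18 22.3-fold, Krt7 12.7-fold, Krt19 7.74-fold, Esrp1 23.3-fold and Ehf 45.4-fold, all higher in RPR2. Ovol1 differed 16.2-fold, Esrp2 7.02-fold, Grhl2 6.54-fold and Elf3 4.43-fold in the same direction. RPR2 replicate 3 had the highest alveolar type 2 sum of all tumours and the lowest Krt8, Krt7, Esrp1, Ehf, Ovol1 and Elf3 of the RPR2 tumours. It had the highest Krt19, Esrp2 and Grhl2 of the 3, and its Krt18 lay between the others. Krt8 divided by the alveolar type 2 sum was 0.0245 to 0.2398 in RPM and 0.5386, 0.3526 and 0.009 in RPR2 replicates 1, 2 and 3. A picked pair of tumours cannot separate lung tissue from the model, and the part of lung tissue was not tested.

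**Figure D4:**
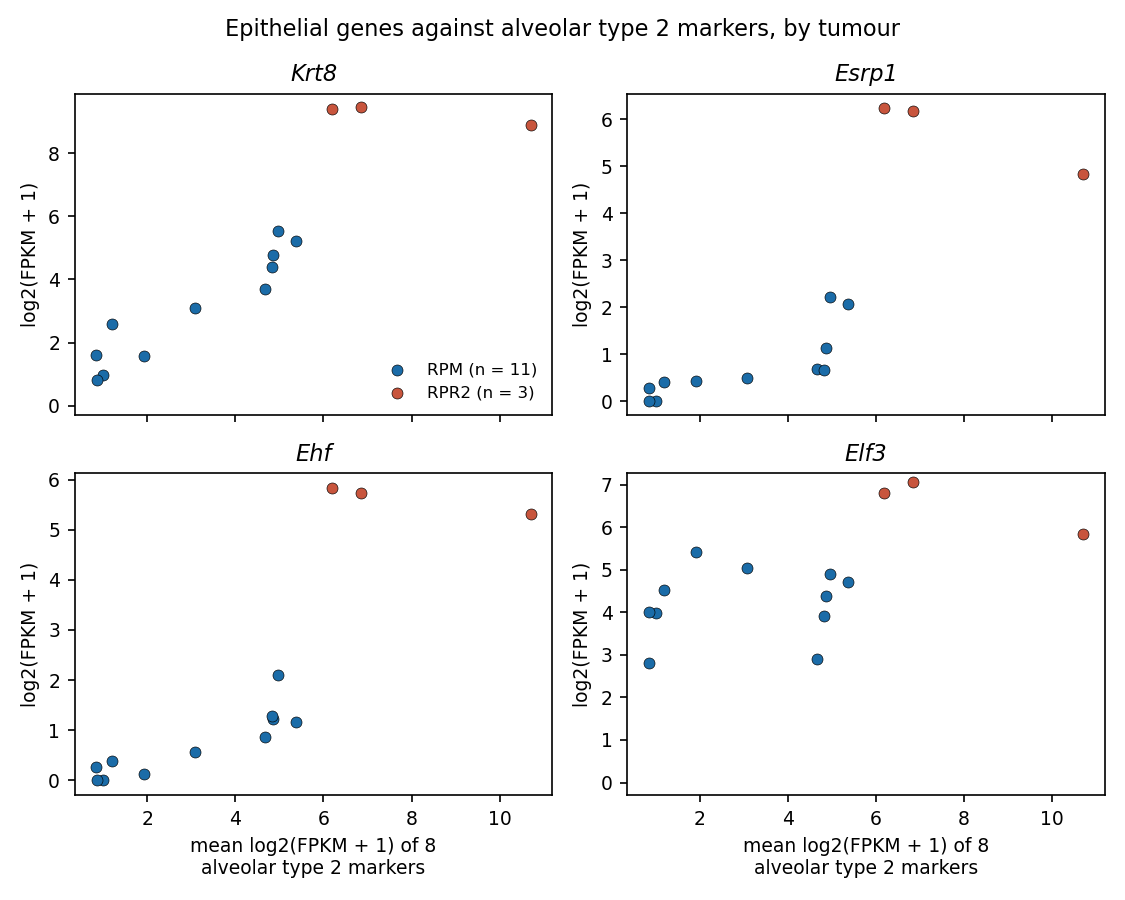
Level of Krt8, Esrp1, Ehf and Elf3, as log2(FPKM + 1), against the mean of the same quantity over 8 alveolar type 2 markers, 1 point for each of 11 RPM and 3 RPR2 tumours. Krt8, Esrp1 and Ehf have their highest RPM levels in tumours with high markers, the highest Elf3 in RPM lies at a low marker level (41.98 FPKM, replicate 8), and Krt8 in RPR2 replicate 3, which has the highest markers, is 467.49 FPKM, the lowest of the RPR2 tumours.

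The RPM tumours differed widely among themselves. RPM replicate 5 was among the 3 highest RPM tumours for 9 of the 10 genes, replicate 1 for 8 and replicate 11 for 7. RPM replicate 4 was among the 3 lowest for 8, and replicates 2 and 6 for 7 each. The mean log2 level over the 10 genes ran from 0.99 in RPM replicate 4 to 3.33 in RPM replicate 5, and was 6.39, 6.61 and 5.98 in RPR2. Alveolar type 2 sums fell into separate sets in the same tumours. They were 15.62 to 63.04 FPKM in RPM replicates 2, 3, 4, 6 and 8, 134.64 FPKM in replicate 7 and 495.3 to 891.53 FPKM in replicates 1, 5, 9, 10 and 11. Because neither set holds 6 tumours, a relation to these markers could not be tested within a set, and no pooled r is printed.

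Pairs of the genes were related across the 11 RPM tumours, in a family of 65 relations with 100000 permutations each and Benjamini-Hochberg adjustment. Over all 45 pairs, r ran from 0.04 to 0.96 (median 0.79) and 33 pairs passed. Among the 36 pairs without Elf3, a split that was not planned, r ran from 0.56 to 0.96 (median 0.85) and the same 33 passed. No share for pairs of other genes was worked out. Krt8 and Krt18 had r = 0.96 and rho = 0.93 (permutation p = 3e-05 and 0.00012, adjusted p = 0.000244 and 0.000704), and r = 0.94 without replicates 4 and 5. Esrp1 and Esrp2 had r = 0.94 and rho = 0.98 (permutation p = 1e-05 for both, the smallest these permutations can give, adjusted p = 0.00013 and 0.000506), and r = 0.95 without replicates 5 and 11. Esrp1 and Ovol1 had r = 0.95 and rho = 0.79 (permutation p = 0.0005 and 0.00554, adjusted p = 0.00154 and 0.0117), and r = 0.72 without replicates 5 and 11. The 9 pairs with Elf3 had r between 0.04 and 0.36 and none passed by permutation. For Krt8 and Elf3, r was 0.20 and rho 0.18 (permutation p = 0.544 and 0.596, adjusted p = 0.580 and 0.625), and r was 0.07 without replicates 4 and 5. Whether the correlations with Elf3 differ from the others was not tested. Points in these pairs share a library and its content of lung tissue, whose part was not tested. The pairs also pool the separate sets of tumours described above, so their p-values do not hold within a set. The family also held 10 relations with the mean of the alveolar type 2 markers, and 9 passed by permutation. That count pools the same sets and cannot separate them from a relation within a set. None of the 10 relations with the mean of the neuroendocrine markers passed by permutation, with r from -0.61 to -0.13, and 1 had an unadjusted p under 0.05 for r. Without replicates 1 and 5, r was -0.44 for Elf3 and ran from 0.02 to 0.56 for the other genes, so the negative sign rested on those tumours except for Elf3.

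**Figure D5:**
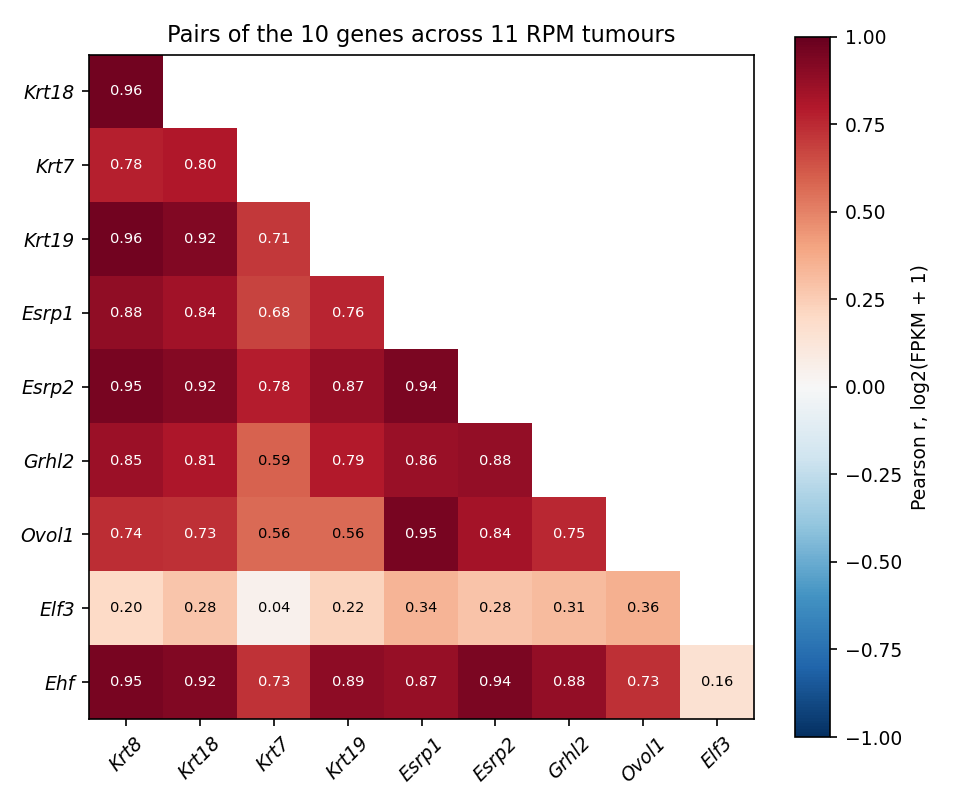
Pearson r between the 10 genes on the log2(FPKM + 1) scale across the 11 RPM tumours, 1 cell per pair. The row of Elf3 stands between 0.04 and 0.36, and the other pairs between 0.56 and 0.96.

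The number of Myc T58A copies was compared within RPM, between 9 LSL/LSL and 2 LSL/+ tumours. Krt8 stood at 0.99 and 0.75 FPKM in the LSL/+ tumours and at 1.99 to 45.57 FPKM in LSL/LSL. Krt19 stood at 0.41 and 0 FPKM in LSL/+ and at 1.19 to 24.00 FPKM in LSL/LSL. Esrp1 (0.01 and 0 FPKM), Esrp2 (0 and 0.03 FPKM) and Ehf (0 and 0.01 FPKM) were under the level of 3 reads in both LSL/+ tumours. By limma with Benjamini-Hochberg adjustment, 0 of the 9 genes tested passed, against 0.00673% of 14862 genes, and 2 had an unadjusted p under 0.05. These were Krt8, with a log2 difference of 2.71 (SE 0.955, limma, Benjamini-Hochberg adjusted p = 0.256), and Krt19, with 3.04 (SE 0.826, limma, Benjamini-Hochberg adjusted p = 0.231). Krt18 (1.38), Krt7 (0.42), Esrp1 (0.93), Esrp2 (0.99), Grhl2 (0.65), Elf3 (0.30) and Ehf (0.88) had positive estimates that did not pass. The LSL/LSL tumours lay above both LSL/+ tumours for 6 of the 9 genes (Krt8, Krt19, Esrp1, Esrp2, Grhl2 and Ehf), as for 6.68% of all genes. Alveolar type 2 sums were 24.6 and 15.6 FPKM in the LSL/+ tumours, and with the lung epithelial markers as a covariate the differences were 0.38 for Krt8 and 0.94 for Krt19, 0.24 for Grhl2, 0.09 for Esrp1 and 0.02 for Ehf. They turned negative for Krt7 (-1.53), Krt18 (-0.44), Esrp2 (-0.06) and Elf3 (-0.06), and 0 of the 9 genes passed in that limma fit. The fit was added after the data were seen. Its covariate was 1.66 and 0.614 in the LSL/+ tumours, at the low end of the RPM range of 0.614 to 5.90. The part of lung tissue in the allele difference was not tested.

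Among other keratins, 5 of 14 could be tested, and Krt23 and Krt10 fell in RPM (also 2, of 3 tested, without RPR2 replicate 3). Krt23 reached 1 FPKM in no RPM tumour, so it entered the test through RPR2 alone and had to differ. Krt10, a keratin of the upper epidermis, stood at 0.68 to 1.77 FPKM in RPM and at 2.72, 3.22 and 1.99 FPKM in RPR2. Krt17, a keratin of basal and stressed epithelium, was at 0.48 to 7.30 FPKM in RPM and at 1.78, 0.25 and 0.03 FPKM in RPR2 (log2 difference 0.99, limma, Benjamini-Hochberg adjusted p = 0.101). Krt5, which marks basal cells, was too low to be tested, at 0 to 2.91 FPKM in RPM and at most 0.02 FPKM in RPR2.

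Genes that work beside the set were also low in RPM. Of 13 further epithelial transcription factors 9 were tested and all 9 fell, 5 of them having entered the test through RPR2 alone. Grhl1, a paralog of Grhl2, stood at 0.52 to 2.33 FPKM in RPM and at 9.87, 9.85 and 9.01 FPKM in RPR2 (log2 difference -2.34). Ovol2, a paralog of Ovol1, was at 0 to 0.61 FPKM in RPM and at 6.14, 9.22 and 3.26 FPKM in RPR2 (-2.61). Tfcp2l1 (-2.95) had the smallest p of the list. Tfcp2l1 and Ovol2 reached 1 FPKM in no RPM tumour and so had to differ. Without RPR2 replicate 3, 4 of these factors could be tested and all 4 fell. Of 10 genes for desmosomes and for proteins that link keratin filaments, 8 fell, also without RPR2 replicate 3, with a median of -2.82, and 1 of the 10 had entered the test through RPR2 alone. Dsp, which encodes the desmoplakin that anchors keratins at desmosomes, was 0.81 ± 0.69 FPKM over the RPM tumours (SD, n = 11), against 49.71, 42.04 and 14.43 FPKM in RPR2 (-4.24). The other named genes of this list were Pkp3 (-4.27) and Ppl (-3.40). Of 24 genes of epithelial junctions and membranes 23 fell, also without RPR2 replicate 3, with a median of -4.23, among them Tjp3 (-3.96), Spint2 (-4.11) and Marveld3 (-3.13). Of the 24, 2 had entered the test through RPR2 alone, and Cldn6 and Cdh3 passed the filter only with RPR2 libraries counted. The 20 that passed it in RPM alone all fell. All of these calls are by limma with Benjamini-Hochberg adjustment at 0.05. Over all tested genes 22.8% fell, and 27.4% without RPR2 replicate 3.

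Intermediate filament genes other than keratins were mostly higher in RPM or did not pass. Of 12 other intermediate filament genes 6 rose and 1, Synm, fell (5 and 1 without RPR2 replicate 3), with a median log2 difference of 0.86. Synm reached 1 FPKM in 1 RPM tumour, so it entered the test through RPR2 and had to differ. The neurofilament genes Nefl (3.18) and Nefh (2.95) and the muscle filament gene Des (1.72) had the smallest p of the list. The other rises were Ina (3.20), Nefm (2.02) and Lmnb1 (1.11). Nefm was close to the threshold (limma, Benjamini-Hochberg adjusted p = 0.0495). It ran from 2.92 to 45.99 FPKM in RPM and was 27.54, 5.29 and 0.01 FPKM in RPR2. Vim, the filament gene of mesenchymal cells, ran from 92.1 to 489 FPKM in RPM (median 142) and was 102, 51.8 and 208 FPKM in RPR2. Its log2 difference was 0.62 and it did not pass (limma, Benjamini-Hochberg adjusted p = 0.28). Among the 8 tested repressors of epithelial genes 3 rose, Tcf4 (2.53), Zeb1 (1.87) and Tcf3 (0.57), and none fell (3 and 1 without RPR2 replicate 3). Zeb1, which encodes a repressor that binds E-boxes, stood at 6.65 to 32.2 FPKM in RPM and at 6.41, 6.36 and 1.2 FPKM in RPR2. Of 21 other splicing regulators 8 rose and 3 fell, with a median of 0.93 (6 and 5 with a median of 0.03 without RPR2 replicate 3). Over all genes 18.4% rose and 22.8% fell, and 16.4% and 27.4% without that library, so the falls of this list are no more frequent than those of all genes. Rbm38 (1.65) and Nova1 (2.60), an RNA-binding protein of neurons, rose. Mbnl3 (-1.42) and Rbm47 (-2.06) entered the test through RPR2 alone and had to differ, and Ptbp3 (-2.04) was the other fall.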

How the data were processed

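RNA was sequenced from 11 RPM and 3 RPR2 tumours, and the values analysed are FPKM that the authors made and deposited, 1 column per tumour. RSEM 1.2.12, Bowtie 1.0.1 and the mm10 build are named in the submitters' processing notes. Not given in the sources used here are the annotation release, the use of strand and how libraries were scaled. Of 46517 gene rows 46005 had a symbol, 1 reporter row at 0 in all 14 libraries was left out, and 0 value columns lacked a sample. RSEM shares reads between near-identical genes. Depth was estimated with a read length of 50 bases assumed.

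Values were analysed as log2(FPKM + 1). Genes with at least 1 FPKM in at least 3 libraries entered a linear model in limma 3.58.1 under R 4.3.3 (empirical Bayes with trend, Benjamini-Hochberg adjustment over all tested genes, threshold 0.05). Ratios used two-sided exact permutation and relations 100000 permutations (SciPy 1.17.1). Besides the 10 genes, the text names up to 3 genes of each list with the smallest p, and the 5 genes most like the set over RPM and over all libraries. Uchl1, Calca, Krt5, Synm, Vim, Ina, Nefm, Lmnb1, Rbm47 and Ptbp3 were named after their values were seen. The 10 genes and all lists were chosen with earlier results of these data known, so none is independent support. The test was first checked on simulated data. The alternatives were pseudocounts, filters, scalings, array weights, title number as a random effect, LSL/LSL tumours alone and leaving out each library. The lung marker covariate and the list counts without RPR2 replicate 3 were added after the data were seen.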

Additional observations from a re-analysis of the deposited data

How the results depend on the processing

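All 235 values of the 10 genes for RPM against RPR2 under other settings kept their direction and stayed past the threshold, and the largest adjusted p was 0.0318 by limma (Krt19, pseudocount 0.01). Of 19 values with the lung marker covariate, 3 lost the call, Krt19 with and without RPR2 replicate 3 (-1.25 without it, adjusted p = 0.0611 by limma) and Elf3 with all libraries. Within RPM, none of the 9 genes passed between alleles under any other setting tried. Of 80 ratio values under alternatives, 5 lost a call and 2 gained one. The losses without RPR2 replicate 1 or 2 were at the smallest adjusted p that a ratio on its own could give there. Of 65 relations 3 were lost with a pseudocount of 0.1. The r without the 2 farthest tumours had no p-value, so no call could be lost there. The median log2 difference of all genes moved from -0.06 to -0.23 with TPM scaling. No paired analysis was possible because the labels give no pairing between the models. With 3 RPR2 tumours, 1 of them without neuroendocrine markers, and 2 LSL/+ tumours, precision is set by the number of tumours. Levels under that of 3 reads are not distinguishable from 0.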

Other observations

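The genes whose pattern was most like the mean of the 10 genes were ranked by Pearson r on the log2(FPKM + 1) scale, as a description with no test. Over the 11 RPM tumours these were Cyp2s1 (r = 0.987, 0 to 3.58 FPKM), Prr15l (r = 0.984, 0 to 7.45 FPKM), Nfe2l2 (r = 0.981, 5.45 to 22.39 FPKM), Cdh1 (r = 0.974, 0.07 to 15.57 FPKM) and St14 (r = 0.973, 0.07 to 5.82 FPKM). Cdh1 encodes E-cadherin, the adhesion protein of epithelial junctions, and St14 encodes matriptase, a membrane protease of epithelia. Over all 14 tumours they were Epcam (r = 0.994), St14 (r = 0.994), Cldn7 (r = 0.993), Spint1 (r = 0.993) and Ap1m2 (r = 0.992). Epcam, an epithelial adhesion protein, ran from 0.82 to 25.36 FPKM in RPM and stood at 354.5, 427.99 and 213.63 FPKM in RPR2. The points share the libraries and their content of lung tissue, and over all 14 tumours they also carry the difference between the models.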
